A study of Mus musculus with 34 samples.

Results

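Gm4340, Gm6763 and Gm8764 are 3 predicted protein-coding genes of the mouse that lie in 1 tandem array on chromosome 10. They were chosen by symbol, as 3 of the 49686 gene rows in the tables of the younger stages and 3 of the 51734 rows in the blastocyst table. The choice was made because earlier results of these data showed the family higher in R442Q zygotes, so the values in zygotes and the change between stages are given as a description, with no test. Each library was made from the RNA of 1 embryo. All embryos had been injected at the zygote stage with mRNA for CHK1, either wild-type (WT) or the mutant R442Q, and none in this set was uninjected. The groups were 5 WT and 6 R442Q zygotes and 4 WT and 5 R442Q late 2-cell embryos, for which the labels give no inhibitor, and 7 WT and 7 R442Q blastocysts, all grown with 30 nM of a Chk1 inhibitor. The blastocysts therefore differ from the younger embryos in both stage and inhibitor, which cannot be told apart. The labels name no strain, and every injected embryo keeps its own Chek1 gene.

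CHK1 is the checkpoint kinase that ATR activates when DNA is damaged or replication is incomplete, and it holds back mitosis by acting on the CDC25 phosphatases. The mouse embryo starts life with maternal RNA. Its own genome is first transcribed at a low level in the zygote, and the main wave of transcription comes in the late 2-cell embryo, when a set of genes such as Zscan4, Tcstv, Zfp352 and Usp17-like genes is switched on for a short time. The transcription factor DUX can drive many of these genes. Gm4340 is usually listed among such 2-cell genes, and what its protein does is not established.

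The sequences come first, because near-identical copies limit what the counts can tell apart. GENCODE M21 (GRCm38) places Gm4340 (ENSMUSG00000090854.9) at chr10:104194042-104196522, Gm6763 (ENSMUSG00000097427.5) at chr10:104151497-104153965 and Gm8764 (ENSMUSG00000097878.5) at chr10:104160006-104162473, all on the plus strand and each with a main transcript of 2 exons. A search of all annotated transcripts for 50-base stretches of these genes found 4 more genes that hold at least 50% of them: Gm21293, Gm21304, Gm21312 and Gm20765. The 7 genes start 8509 or 8510 bases apart. Gm4340 is the last of them. The gene model of Gm21293 runs on to chr10:104153674 and so overlaps that of Gm6763. The transcript of 1246 bases is the same in 6 of the 7 genes, Gm6763 and Gm8764 among them, and the annotated coding part is 792 bases in these 2 members and 783 bases in the other 4 copies. The Gm4340 transcript is 1258 bases long, with a coding part of 804 bases, and it differs from the Gm6763 coding sequence by 12 extra bases, or 4 codons, in a repeat. The 2 coding sequences are printed over this stretch to show where Gm4340 can be told from Gm6763. Capitals mark the extra bases as aligned at coding positions 730 to 741, counted from the start codon. Because the stretch is a repeat, this placement is one of several that fit.
Gm4340, coding positions 700 to 771: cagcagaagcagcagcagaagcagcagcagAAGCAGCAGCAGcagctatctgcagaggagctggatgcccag
Gm6763, coding positions 700 to 759: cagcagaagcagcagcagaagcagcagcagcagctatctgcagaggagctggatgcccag

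Of the 1254 stretches of 50 bases in Gm4340, 14 occurred in no other annotated gene. Gm6763 and Gm8764 had none of their own among 1242 stretches. By these models a read from Gm6763 or Gm8764 matches at least 1 other copy equally well, and how such reads were divided is the counting program's estimate. The annotation behind the deposited counts is not given. Gm6763 and Gm21304 share their main GENCODE M21 transcript, yet their counts were identical in only 2 of 11 zygotes. The M21 transcripts alone thus do not show how the reads were split. For this reason each result is given for the 3 members singly, for their sum, and for the sum of all 7 copies.

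**Figure D1:**
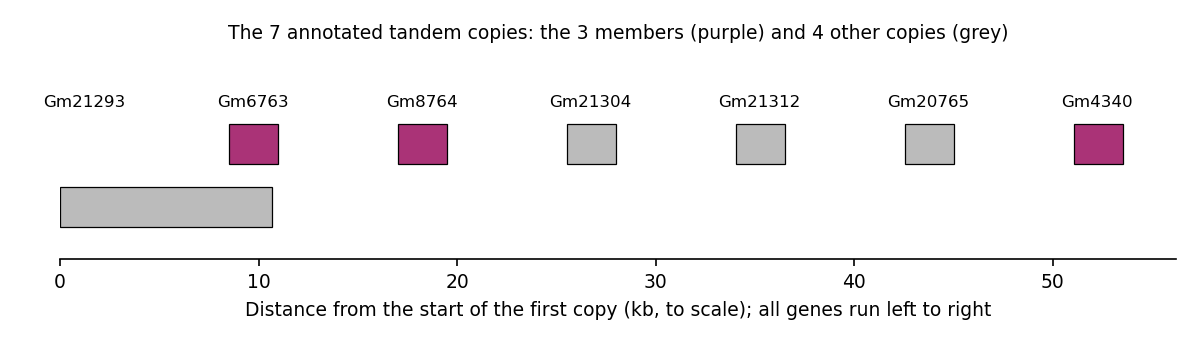
Positions of the 7 copies along chromosome 10, in kb from the start of the first copy, drawn to scale. Purple boxes are the 3 members and grey boxes the other 4 copies; the long grey box is the gene model of Gm21293, which overlaps Gm6763.

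RefSeq (GRCm38.p6) held promoter sequences for 6 of the 7 genes, Gm4340 and Gm8764 among them. The 250 bases before the start of Gm4340 were identical to those of Gm21312 and differed from those of Gm8764, Gm21293, Gm21304 and Gm20765 only by C1G, counted from the first base of the window, with the Gm4340 base given first. The window is printed because the copies share it. It lies on the plus strand at chr10:104193792-104194041.
Gm4340, 250 bases before the start: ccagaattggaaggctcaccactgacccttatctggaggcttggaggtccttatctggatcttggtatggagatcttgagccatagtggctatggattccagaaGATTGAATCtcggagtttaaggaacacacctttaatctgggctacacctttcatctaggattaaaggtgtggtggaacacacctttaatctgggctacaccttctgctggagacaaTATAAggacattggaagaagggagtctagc

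Capitals mark the motifs searched, which were picked after the sequence had been read. GATTNAATC reads the same on both strands apart from its middle base, and it starts at position -146 relative to the gene start. It occurred on either strand in 81 of 32851 RefSeq promoter windows of this length, or 0.247%, and in all 6 windows of the array. TATAA starts at position -30 and occurred in 22.8% of the windows. It occurred in all 6 windows of the array as well, and the motifs do not overlap. The 6 windows are near-identical copies and count as 1 observation, and a match of letters is a description of this window.

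Zygote libraries held 7183632 to 11296522 estimated counts in total and late 2-cell libraries 5727956 to 8916343. The blastocyst table gives FPKM (fragments scaled to transcript length and library size), and its depth in reads is unknown. Chek1 itself ran from 4593 to 8653 CPM (estimated counts per 1000000 counts of the library) in WT zygotes and from 5597 to 7171 in R442Q ones; the table cannot separate injected from endogenous mRNA. The 6 oocyte and zygote markers were all present in zygotes, with a summed level of 5575 to 7558 FPKM in WT and 3645 to 5373 in R442Q. These ranges did not overlap. Of all genes tested in zygotes, 6.92% were called lower in R442Q by edgeR at an adjusted p under 0.05. The share of genes with every R442Q zygote below every WT zygote is not given, so the non-overlap is a description only. The 8 cumulus and granulosa cell markers summed to at most 2.53 FPKM in zygotes and 23.0 in late 2-cell embryos, with Amh at 0 in all zygotes and Cd44 and Inha at 0 in all late 2-cell embryos. A median of 1 FPKM or more was reached by 0 of the 8 in zygotes and by 1 of the 8 in each late 2-cell group. Cdx2, Krt8, Krt18, Pou5f1, Nanog, Gata6 and Sox17, the 7 blastocyst markers, all reached a median of 1 FPKM or more in both blastocyst groups.

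In zygotes all 3 members were higher in R442Q than in WT embryos, with fitted fold changes of 10.8 for Gm4340 and 12.4 for Gm6763 and Gm8764. Gm4340 had 18.2, 44.4, 107.7, 19.3 and 4.93 estimated counts in the 5 WT zygotes. In the 6 R442Q zygotes Gm4340 had 450.6, 854.9, 105.3, 206.2, 491.1 and 177.2. The genotypes overlapped in this row: R442Q replicate 3 lay just below WT replicate 3, and the other 5 R442Q zygotes lay above all WT zygotes. The fitted log2 fold change of Gm4340 was 3.44 ± 0.67 (SE). In CPM its mean was 4.82 ± 5.16 in WT and 47.1 ± 39.8 in R442Q (SD, n = 5 and 6).

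Gm6763 and Gm8764 held exactly the same estimated count in each of the 11 zygotes, so in zygotes the rows are 1 measurement under 2 names. That count was 20.8, 34.9, 33.6, 37.96 and 19.0 in the WT zygotes. It was 242.2, 705.7, 257.6, 168.5, 430.4 and 290.0 in the R442Q zygotes. Every R442Q zygote was above every WT zygote; in CPM the highest WT value was 5.13 and the lowest R442Q value 19.6. The log2 fold change was 3.63 ± 0.40 (SE).

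The sum of the 3 members was 7.40, 13.1, 22.1, 12.9 and 4.86 CPM in WT zygotes. It was 130.2, 308.8, 65.5, 63.2, 144.0 and 67.0 CPM in R442Q zygotes. The genotypes did not overlap, and R442Q replicate 2 was the highest zygote. On either genotype's side the spread was wide, 4.54-fold between the lowest and highest WT zygote and 4.89-fold in R442Q. The log2 fold change of the sum was 3.57 ± 0.46 (SE), and that of all 7 copies 3.45 ± 0.43 (SE). Among all 12420 genes tested in zygotes, 6.3% were called higher in R442Q by edgeR at an adjusted p under 0.05, and 2.54% had every R442Q zygote above every WT zygote. Since the members were chosen on this contrast, nothing is read from these shares. The summed oocyte markers also differed between these zygotes, in the opposite direction, and their part in the result was not tested.

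**Figure D2:**
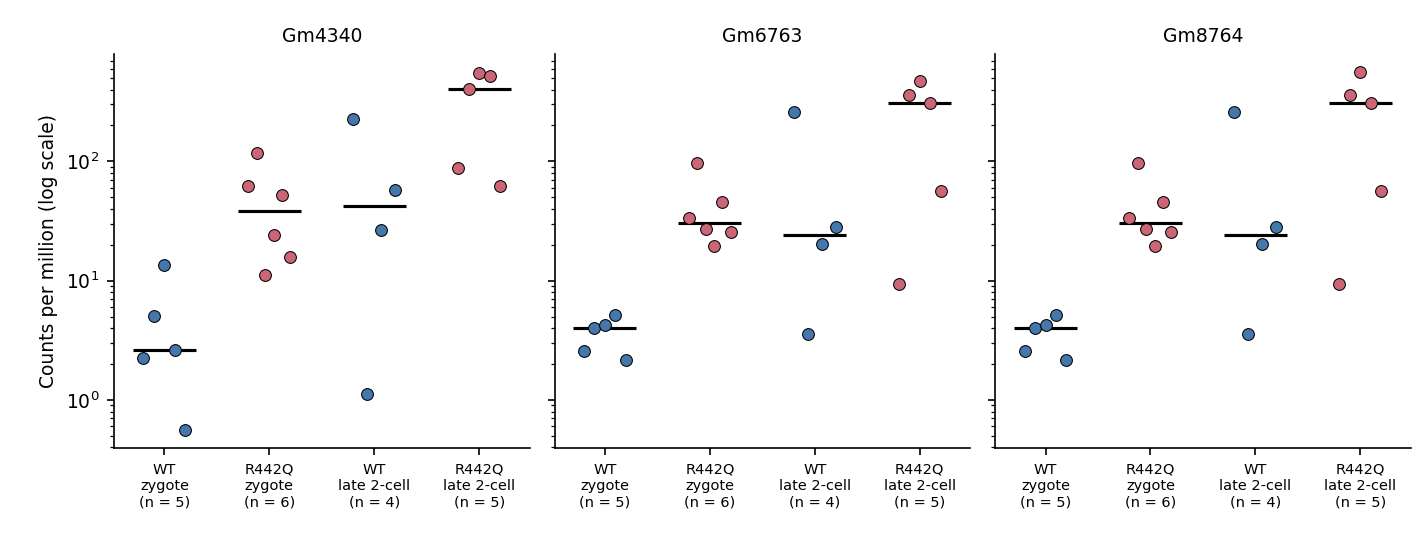
CPM (log scale) of Gm4340, Gm6763 and Gm8764 in each zygote and late 2-cell embryo, one point per embryo, with the group median as a bar. The panels of Gm6763 and Gm8764 are the same in zygotes; Gm4340 alone overlaps between WT and R442Q zygotes.

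By the late 2-cell stage the family was on average higher than in zygotes in both genotypes, and single embryos of 1 group differed by more than 10-fold. The stages overlapped within each genotype. For the 3-member sum, WT late 2-cell replicate 2 (8.21 CPM) lay within the WT zygote range of 4.86 to 22.1 CPM. R442Q late 2-cell replicates 1 and 5 (105.9 and 175.4 CPM) lay within the R442Q zygote range of 63.2 to 308.8 CPM. Gm4340 had 1410, 7.78, 172.1 and 339.4 estimated counts in the 4 WT embryos. In the 5 R442Q embryos it had 505.5, 2334, 3317, 3125 and 558.2. WT replicate 1 was above 2 of the 5 R442Q embryos, and the other 3 WT embryos were below all of them. The log2 fold change of Gm4340, R442Q over WT, was 2.16 ± 0.96 (SE), with an edgeR adjusted p of 0.211.

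Gm6763 had 1619, 24.4, 132.2 and 166.3 estimated counts in the WT late 2-cell embryos. In the R442Q embryos Gm6763 had 54.3, 2072, 2882, 1831 and 502.9. Its lowest R442Q value, in replicate 1, lay below 3 of the 4 WT embryos. Gm8764 followed Gm6763 to within 1% in 8 of the 9 embryos, and differed by 16.8% in R442Q replicate 3, where it had 3411. The log2 fold changes were 1.73 ± 1.05 for Gm6763 and 1.83 ± 1.06 for Gm8764 (SE). Neither passed, at edgeR adjusted p-values of 0.370 and 0.350. Thus 0 of the 3 members passed the threshold singly, where 1.22% of the 13883 genes tested were called higher in R442Q. At an unadjusted p under 0.05 by edgeR Gm4340 alone passed, where 10.2% of the genes tested were higher. By DESeq2 0 passed, where 4.69% of 16926 genes were called higher. Gm4340 passed with no filter on low counts (edgeR adjusted p = 0.0225), where 0.927% of 26742 genes were called higher.

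The sum of the 3 members was 751.9, 8.21, 67.4 and 114.3 CPM in WT and 105.9, 1131, 1585, 1136 and 175.4 CPM in R442Q late 2-cell embryos. The medians were 90.9 and 1131 CPM. WT replicate 1 was above 2 of the 5 R442Q embryos and WT replicate 2 was the lowest of all 9. The log2 fold change was 1.92 ± 0.97 (SE) with an edgeR adjusted p of 0.282, so the difference between genotypes was not larger than the spread between embryos by this test. An exact permutation test of log2(CPM + 1), two-sided over the 126 ways to split the 9 embryos, gave p = 0.0952 (the smallest it can give is 0.0159).

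With all 7 copies the sum was 1726, 22.1, 210.2 and 256.8 CPM in WT and 578.7, 3070, 4227, 2720 and 490.4 CPM in R442Q late 2-cell embryos. Here 3 of the 4 WT embryos were below every R442Q embryo, and WT replicate 1 was the exception. The log2 fold change was 2.11 ± 0.91 (SE) with an edgeR adjusted p of 0.196, and the exact permutation p was 0.0794. Both fitted fold changes depend on WT replicate 1. Without it the log2 fold change was 3.70 ± 0.97 for the 3 members and 3.77 ± 0.88 for the 7 copies (SE), at edgeR adjusted p-values of 0.0634 and 0.0422, and the 7-copy sum also passed when genes of low count were kept in the fit (2.05 ± 0.55, SE, edgeR adjusted p = 0.0190). Leaving it out was one of 9 such fits. The FPKM columns of late 2-cell embryos sum to 712234 to 742246 in WT and 814376 to 976830 in R442Q; the CPM values above do not use FPKM. The 6 oocyte and zygote markers summed to 1222 to 3146 FPKM in WT and 1697 to 7025 in R442Q late 2-cell embryos, and the 4 markers of 2-cell embryos (Zscan4d, Tcstv3, Zfp352 and Tdpoz4) to 99.8 to 845.8 and 460.3 to 1555. The part of these differences in the result was not tested. Each library pools the cells of 1 embryo, so fewer cells holding the RNA and less RNA per cell cannot be told apart.

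**Figure D3:**
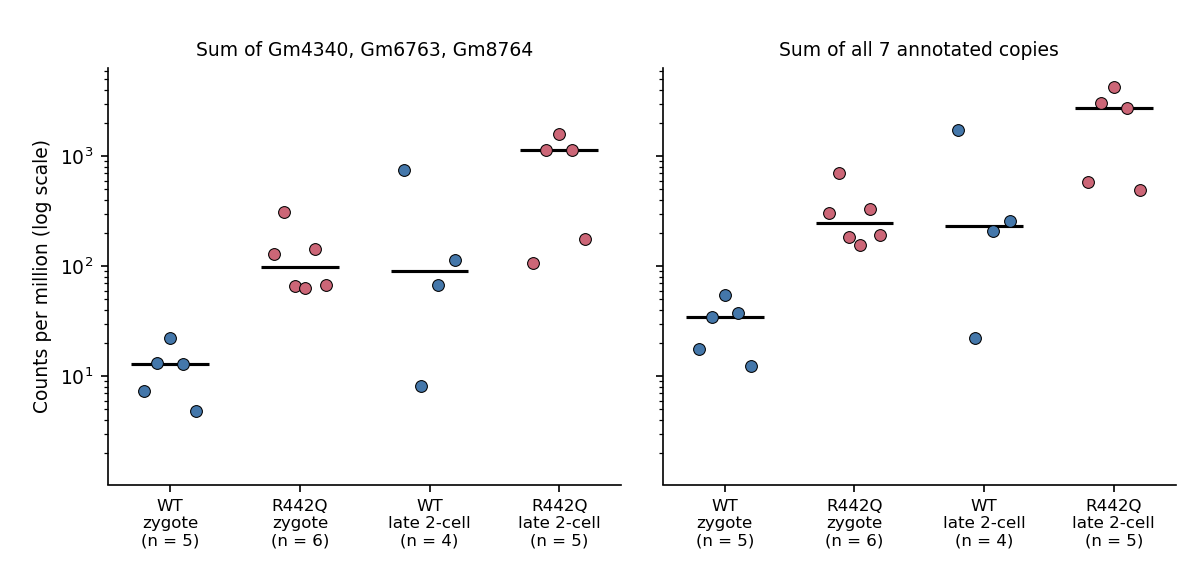
Summed CPM (log scale) of the 3 members (left) and of all 7 copies (right), one point per embryo with the group median as a bar. The zygote groups do not overlap; at the late 2-cell stage WT replicate 1 lies among the R442Q embryos in both panels.

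The division of the counts among the 7 copies differed between embryos. An equal share would be 14.3% each. The 3 members together took 18.3% to 44.5% of the 7-copy count, with a median of 38.6% over the 20 embryos. Gm4340, the member with stretches of its own, varied most from embryo to embryo among zygotes, from 4.52% to 24.7% in WT and from 6.01% to 20.6% in R442Q, and these ranges overlap. Its median share was 12.7% in WT and 15.7% in R442Q zygotes, and 12.9% and 13.3% at the late 2-cell stage. In zygotes Gm21304, Gm21312 and Gm20765 held the same count as each other in all 11 embryos.

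One late 2-cell embryo stood apart in this division. In R442Q replicate 1 Gm21293 took 72.0% of the 7-copy count (2414 of 3354 estimated counts), where the other 19 embryos gave it at most 17.2%. Gm6763 and Gm8764 were given 1.62% each there. The 3-member sum of this embryo, 105.9 CPM, was below WT replicates 1 and 4, while its 7-copy sum, 578.7 CPM, was above 3 of the 4 WT embryos. In all 11 zygotes the 7-copy count was within 0.05 of a whole number, and the 3-member sum was so in 4 of them. The reads assigned to the array as a whole were thus countable in zygotes and the fractions arose in the split between copies; at the late 2-cell stage the 7-copy count was that close to a whole number in 5 of 9 embryos.

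**Figure D4:**
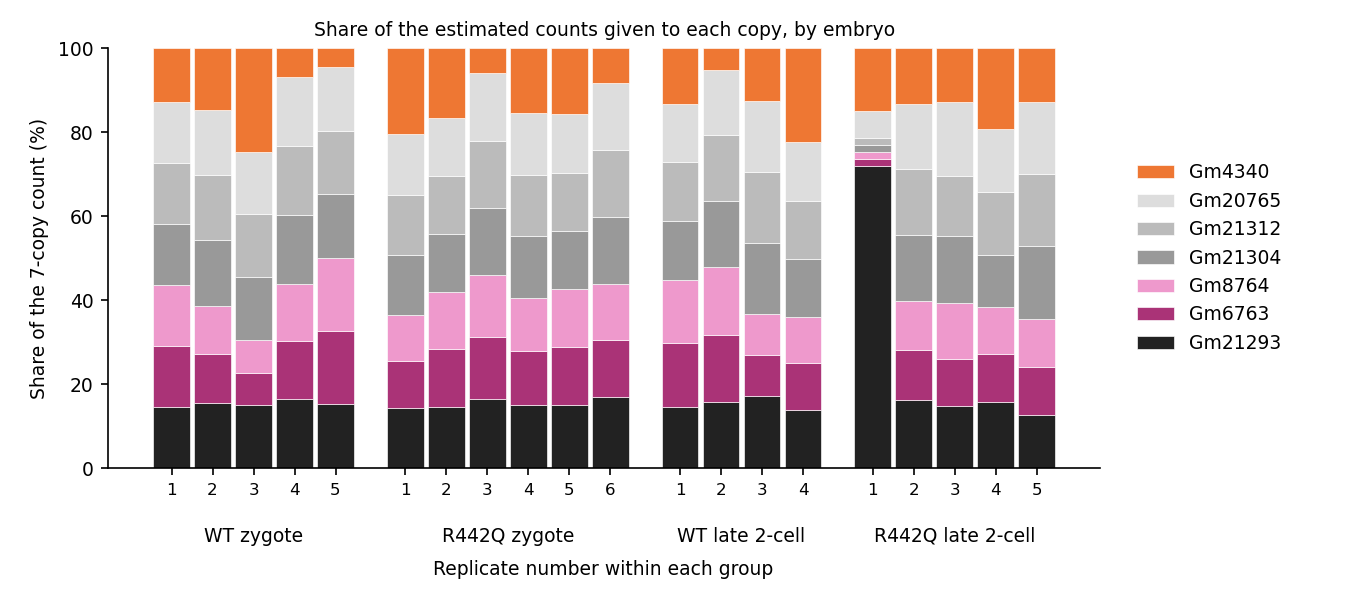
Share (%) of the 7-copy estimated count given to each copy in each of the 20 zygotes and late 2-cell embryos; each bar is 1 embryo and sums to 100%. In R442Q late 2-cell replicate 1 the black part, Gm21293, takes 72.0%, against at most 17.2% elsewhere.

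From zygote to late 2-cell stage the 3-member sum rose by a log2 fold change of 4.03 ± 0.87 in WT and 2.47 ± 0.74 in R442Q embryos (SE), given here as a description. For the 7 copies the values were 3.83 ± 0.79 and 2.56 ± 0.68 (SE). The WT value rests on 1 embryo: without WT late 2-cell replicate 1 it was 2.20 for the 3 members. As a difference of mean log2(FPKM + 1) the rise was 2.80 in WT and 2.27 in R442Q embryos. The difference between the genotypes' stage changes was not tested, because it contains the zygote contrast. Per length and library size, Gm4340 averaged 4.55 FPKM in WT zygotes, 44.4 in R442Q zygotes, 70.0 in WT late 2-cell embryos and 312.2 in R442Q late 2-cell embryos (SD 4.69, 37.99, 91.4 and 232.3). For Gm6763 these averages were 3.53, 38.2, 81.8 and 229.7 FPKM (SD 0.946, 26.3, 132.2 and 194.2). The order of the 4 group means was the same for the 3 members, and of the neighbours in it R442Q zygotes and WT late 2-cell embryos overlapped widely, as did the late 2-cell genotypes. The place of WT late 2-cell embryos above R442Q zygotes depends on WT replicate 1: without it their mean was 25.5 FPKM for Gm4340 and 15.8 for Gm6763, below the R442Q zygotes. By medians the 3-member sum was at 90.4 FPKM in R442Q zygotes and 81.9 in WT late 2-cell embryos, and Gm4340 at 36.2 and 37.8. By its mean FPKM Gm4340 ranked 7856 of 24335 genes above 0 in WT zygotes, 2061 of 26889 in R442Q zygotes, 1703 of 23977 in WT late 2-cell embryos and 490 of 24024 in R442Q late 2-cell embryos. Stage and any difference in when the libraries of a stage were made cannot be told apart.

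In blastocysts all 3 members were listed at 0 FPKM in all 14 embryos, WT and R442Q alike. Of the other 4 copies, each was listed at 0.04 FPKM in WT replicate 2 and at 0 in the other 13. No test of the family was possible there. The table lists 26194 of its 51734 rows (50.6%) at 0 in all 14 embryos, whereas 5 genes used by most cells (Actb, Gapdh, Eef1a1, Ppia and Hsp90ab1) had at least 523.4 FPKM in every blastocyst. By limma on log2(FPKM + 1), 0.00885% of the 11297 genes tested, 1 gene, differed between the blastocyst genotypes at an adjusted p under 0.05, and 836 did so at an unadjusted p under 0.05. This table was made with another set of gene rows than that of the younger stages, so its 0 values are set beside the earlier levels without a fold.

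The rest of the 2-cell programme was followed with a list of 44 genes known from 2-cell embryos and 2-cell-like stem cells, which leaves out the 7 copies. It was written with earlier results of these data known. Many of its genes belong to the same families, such as the Zscan4, Usp17-like and Tdpoz genes. All were measured in the same embryos, so counts of its genes are not counts of independent observations. In zygotes 30 of its genes were tested: 20 were higher in R442Q and 1 was lower by edgeR at an adjusted p under 0.05, where 6.3% and 6.92% of all genes were. The median log2 fold change of the 30 was 2.33, against 0.01 over all genes tested. These tallies are a description only, since 42 of the list's genes are in the table and a gene could pass the count filter through the R442Q embryos alone. With no filter on low counts 26 of 41 were called higher, where 3.0% of all genes were, and in the joint fit of both stages 14 of 42, where 1.22% were. Zscan4d, a zinc finger gene known for telomere maintenance, averaged 5.34 ± 2.56 CPM in WT and 26.4 ± 20.8 in R442Q zygotes (SD, n = 5 and 6). Its log2 fold change was 2.43 ± 0.49 (SE; edgeR adjusted p = 0.0040). Zfp352, a zinc finger gene of the 2-cell stage, rose from 4.10 ± 3.76 to 18.1 ± 9.29 CPM, and Usp17ld, of the Usp17-like deubiquitinases, from 2.83 ± 1.62 to 11.1 ± 2.21 CPM (SD). With no filter the fold changes of 35 of the 41 were positive, against 57.8% of all genes. Tcstv3, which did not pass, was at 22.4 ± 9.83 CPM in WT and 15.2 ± 5.14 in R442Q (SD; edgeR adjusted p = 0.340). Duxf3 did not pass either and averaged 16.9 CPM in WT and 31.6 in R442Q (edgeR adjusted p = 0.0643). The summed level of the list did not separate the zygotes, at 1278 to 1558 CPM in WT and 1216 to 1713 CPM in R442Q. Sp110, an abundant member, held 791.6 ± 82.0 and 770.7 ± 125.3 CPM (SD). The 1 gene called lower in R442Q was abundant as well. The sum follows these abundant genes, so it does not describe the list's genes of low level.

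At the late 2-cell stage 41 of the 44 genes were tested and 1 was higher in R442Q, where 1.22% of all genes were. By edgeR 0 were lower at an adjusted p under 0.05, where 2.95% of all genes were. At an unadjusted p under 0.05 by edgeR 0 of the 41 were lower and 15 higher, where 10.7% and 10.2% of all genes were. By DESeq2 0 of 42 were lower and 6 higher, where 5.86% and 4.69% of its genes were. The fold changes of 38 of the 41 were positive, against 52.7% of all genes tested, and their median was 1.19 against 0.07 over all genes. The list's genes are not independent of each other, so these tallies are a description only. Other settings gave between 0 and 8 higher genes. The 0 came with the replicate number as a block, where 0.0576% of all genes were called higher, and the 8 with no filter on low counts. There were 5 when WT replicate 1 was left out (0.641% of all genes) and 2 when it was R442Q replicate 3 (2.85%). By the list's summed level WT replicates 2, 3 and 4 were the 3 lowest of the 9 embryos, at 2532, 3911 and 4323 CPM, as they were by the 7-copy sum. WT replicate 1 stood at 10154 CPM, above R442Q replicates 1, 3 and 5.

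**Figure D5:**
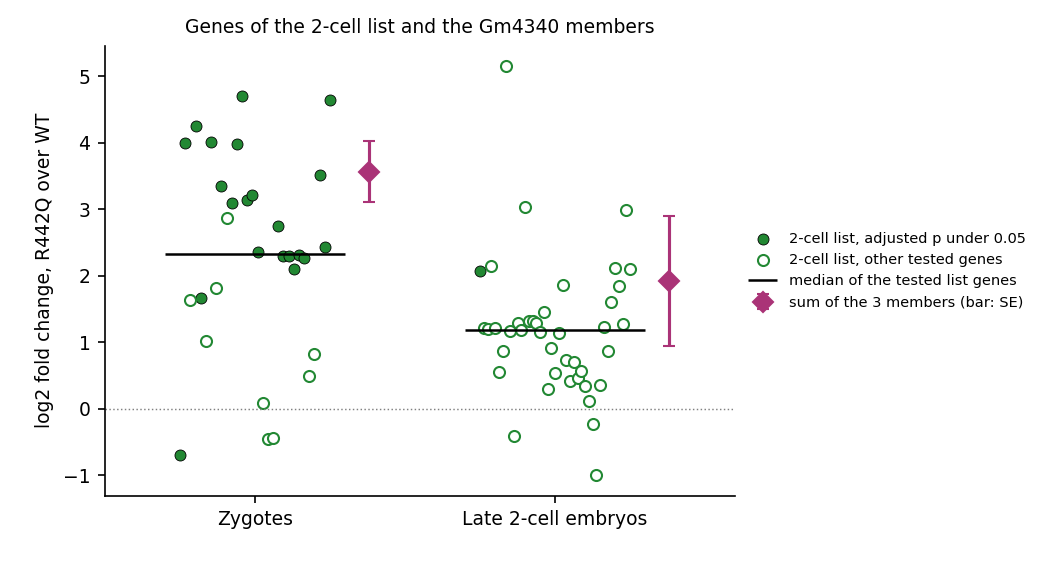
log2 fold changes (R442Q over WT) of the tested genes of the 2-cell list at each stage, with the 3-member sum as a diamond and its SE. Filled points passed an adjusted p under 0.05 by edgeR: 21 of 30 in zygotes and 1 of 41 in late 2-cell embryos; black lines are the list medians, 2.33 and 1.19.

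The genes whose pattern over the 20 zygotes and late 2-cell embryos was most like that of the 3-member sum were Gm5039, Gm6489, Gm6502, Gm8994 and Zscan4d. The measure was the root mean square difference between log2(CPM + 1) profiles, each centred on its own mean, over 10846 genes tested at both stages. It was 0.90 for Gm5039, 0.97 for Gm6489, 1.01 for Gm6502, 1.05 for Gm8994 and 1.09 for Zscan4d, against a median of 2.59 over all genes compared. A flat profile would score 2.40, the spread of the sum about its own mean. The other 4 copies of the array were left out of this ranking, as were the members. The members themselves were at 0.50 for Gm4340 and 0.50 and 0.51 for Gm6763 and Gm8764. Gm6489 holds 0.478% of the 50-base stretches of Gm4340 and the other 4 hold none of them. The same 5 genes came first against the 7-copy sum. Gm8994 and Zscan4d belong to the 2-cell list and the other 3 do not. Gm5039 ran from 1.01 to 2.87 CPM in WT zygotes, 3.63 to 48.8 in R442Q zygotes, 1.75 to 119.0 in WT and 26.5 to 153.3 in R442Q late 2-cell embryos, so like the array it was spread widely in WT late 2-cell embryos. Gm6489 was at most 0.15 CPM in WT zygotes and 2.22 to 14.2 CPM in R442Q zygotes. At such a WT level it could pass the zygote count filter only through the R442Q embryos. The same holds for Gm6502, at most 0.50 CPM in WT zygotes. The ranked profiles include the zygote contrast on which the members were chosen. Higher values of these 5 genes in R442Q zygotes therefore follow from the ranking and are a description only.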

How the data were processed

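Per the labels' protocols, cDNA of single embryos was made with SMART-seq2, cut with Tn5 for Nextera sequencing on a HiSeq X-10. Per the submitters' processing notes, RSEM and mm10 were used; versions, annotation and use of strand are not given in the sources used here. For zygotes and late 2-cell embryos the authors deposited estimated counts per gene symbol, not normalised, and for all 3 stages FPKM, normalised by the authors. The members and lists were chosen with earlier results of these data known.

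Counts were rounded and tested per stage with edgeR 4.0.16 (filterByExpr with a minimum count of 10, TMM, quasi-likelihood test, Benjamini-Hochberg adjustment over all genes, threshold 0.05). For each sum, the copies' rows were replaced by 1 row before the fit. CPM divides the estimated count by the library's total. Blastocysts (FPKM of at least 1 in 7 embryos) were tested with limma 3.58.1 on log2(FPKM + 1). DESeq2 1.42.0 was an alternative. R was 4.3.3, and scipy 1.17.1 gave permutation tests. Scripts were tested on simulated data. The text names the 3 members, genes holding at least 50% of a member's 50-base stretches, the 5 nearest profiles and examples from the 2-cell list, chosen after their values were seen. One gene of that list is counted but not reported here by name. The labels do not say whether embryos came from separate litters, so p-values measure the spread between these embryos. Reads carry no molecular identifiers, and precision is given as the spread between embryos.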

Additional observations from a re-analysis of the deposited data

Results flagged for a closer look

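Groups of 4 to 7 embryos were screened for 1 embryo far from the rest by the gap to its nearest neighbour over the group's range; chance alone marks about 1 in 20 groups. R442Q late 2-cell replicate 1 was marked in 6 shares of the 7-copy count. These are not independent, since the shares of the 7 copies sum to 100% and that of the 3 members contains those of Gm6763 and Gm8764. Gm21293 took 72.0% there, against 16.2% in the next embryo of the group. The shares of Gm6763 and Gm8764 were 1.62% each, that of Gm21312 1.71% and that of Gm20765 6.29%, and the 3 members together took 18.3%, against 35.8% in the next embryo. The summed CPM of the members or of the 7 copies marked no embryo.

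The summed level of the 2-cell list was 714.3 FPKM in WT blastocyst replicate 2 and at most 76.4 FPKM in the other 6 WT blastocysts. Of the 4 markers of 2-cell embryos, Zscan4d, Zfp352 and Tdpoz4 were at 0 in all WT blastocysts, and the 4 summed to at most 0.56 FPKM. Among the 43 list genes with blastocyst values, 26 reached 1 FPKM in at least 1 embryo, and for 8 of them WT replicate 2 was the only such embryo. This was also the only blastocyst in which 4 copies of the array were listed above 0, at 0.04 FPKM.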

How the results depend on the processing

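None of the results reversed its direction under any alternative run. For the 3-member sum in zygotes the log2 fold change ran from 3.10 to 3.89 when 1 embryo was left out and from 3.13 to 3.61 under 9 other settings. For the 7 copies in zygotes it ran from 3.03 to 3.74 without 1 embryo. At the late 2-cell stage the 3-member sum missed the threshold in every fit; its log2 fold change ran from 1.51 to 3.70 without 1 embryo and from 1.85 to 3.69 under the other settings, with adjusted p-values from 0.0634 to 0.481 and from 0.0544 to 0.476. The 7-copy sum there ran from 1.71 to 3.77 without 1 embryo (edgeR adjusted p from 0.0422 to 0.379); it passed without WT replicate 1, and with no filter on low counts (log2 fold change 2.05, adjusted p 0.0190). The rise between stages ran from 2.20 to 4.47 in WT embryos and from 2.19 to 2.82 in R442Q embryos without 1 embryo, and was 2.80 and 2.27 as a difference of mean log2(FPKM + 1). In blastocysts the difference was 0 in every setting, and no fit without a filter was made because all values were 0. For the 2-cell list in late 2-cell embryos the genes called higher numbered 6 by DESeq2 (4.69% of all genes were called higher), 8 with no filter (0.927%), 2 in the joint fit of both stages (5.83%) and 0 with the replicate block (0.0576%), and from 1 to 5 without 1 embryo (0.157% to 2.85%); in zygotes the count ran from 14 to 26 (1.22% to 7.01%), and the gene called lower was lost in the joint fit (0). The cause was not tested.

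The replicate numbers of the sample titles are shared by WT and R442Q embryos. The correlations between the deviations of embryos with the same number were low. They lay between -0.06 and 0.06 over 5 pairs of zygotes and between -0.16 and 0.22 over 4 pairs of late 2-cell embryos. For 7 pairs of blastocysts they lay between -0.17 and 0.20. Whether embryos with the same number were handled together was not tested, and correlations over so few pairs cannot decide it. With the replicate block the log2 fold change of the 3-member sum was 3.61 in zygotes and 3.69 in late 2-cell embryos (edgeR adjusted p = 0.217 in the latter), and 0 in blastocysts. Over all genes, the block took the number called in zygotes down to 1205 (1641 without it) and that in late 2-cell embryos to 58 (581 without it). The numbers in the column names differ from the titles' for both stages; by them the correlations were between -0.07 and 0.05 over 5 pairs of zygotes and between -0.16 and -0.07 over 3 pairs of late 2-cell embryos. A replicate block by those numbers, chosen after seeing the data, gave 3.35 and 3.10 for the 3-member sum (edgeR adjusted p = 0.476 at the late stage), with 1005 genes called in zygotes. In late 2-cell embryos it called 0 of all 13881 genes and so 0 of the 2-cell list by edgeR; 2159 of all genes had an unadjusted p under 0.05. No alternative varied the depth.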

Other observations

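A second group of 15 gene models lies on the same chromosome at chr10:100297941-100397070, 3746 kb before the array, and shares 1.77% to 9.10% of the 50-base stretches of the members. It was picked after its values were seen and was not tested. Its summed level was 10.3 ± 7.84 CPM in WT and 60.1 ± 48.9 CPM in R442Q zygotes (SD, n = 5 and 6), with WT between 2.36 and 20.1 CPM and every R442Q zygote between 28.9 and 157.5 CPM. R442Q replicate 2 was the highest zygote for this group, as it was for the Gm4340 array. In late 2-cell embryos, where the array was at its highest, this group stood at 8.19 ± 14.5 CPM in WT and 6.51 ± 9.83 CPM in R442Q (SD, n = 4 and 5), and 6 of the 9 embryos had 12 counts or fewer.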
